A study of Mus musculus with 6 samples.

Results

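Fibroblast growth factors (FGFs), their receptors and the feedback genes of the ERK kinase pathway were compared between guts of mouse embryos at stage E10.5 that were homozygous for a null allele of Ret (3 samples) and wildtype guts (3 samples). Both groups are labelled with the strain C57BL/6J and the embryos are described as male. Ret encodes the receptor tyrosine kinase for GDNF family ligands on enteric neural crest cells, the allele is labelled only as null with no further detail, and the labels do not say whether a sample was 1 embryo or several. The set was chosen by gene symbol and holds 35 genes of 23233 usable lines in the deposited table: 14 secreted ligands, 4 intracellular FGFs, 5 receptors, 9 feedback inhibitors and 3 ETS transcription factors. All 35 had a line.

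The table holds 1 FPKM value (sequenced fragments per kilobase of transcript, scaled to the size of the library) for each genotype, in which the authors combined its libraries. Values per sample, their spread and the read depth are not in it, so the values below are the authors' values with no SD. The authors' Cuffdiff test covered 24 of the 35 genes, and 11 were not tested. Rises and falls are named only for genes with a deposited q below 0.05. The error after ± is the standard error of the log2 fold change (Ret null over wildtype) implied by the authors' test statistic, and a 95% interval is given from it. The authors' q does not follow from this error, so an interval can include 0 where q passed.

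Secreted FGFs bind receptor tyrosine kinases together with heparan sulphate on the cell surface, and the receptors act through the adaptor Frs2 and the Ras and Raf kinases to activate ERK. ERK then induces genes that restrain it, among them the Sprouty and Spred proteins and the phosphatase Dusp6, and acts through ETS factors such as Etv4 and Etv5. In the mouse gut, mesenchymal Fgf10 acts on an epithelial form of Fgfr2, and epithelial Fgf9 acts on the mesenchyme. Ret also activates ERK, and in the mouse ureteric bud it acts through Etv4 and Etv5.

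Ret stood at 0.0354 FPKM in Ret null gut and 8.80 FPKM in wildtype gut, which goes with the labels. The Ret null value did not match an all-male sample, since Xist, the RNA of the inactive X chromosome, stood at 31.8 FPKM in Ret null gut and 0.136 FPKM in wildtype gut. The Y-linked genes Ddx3y, Uty, Kdm5d and Eif2s3y were 1.64 to 1.99 times lower in Ret null gut. Markers of the dissected tissue and of its neighbours differed too. Of 14 tested gut epithelium markers 12 rose (summed level 380.2 FPKM in Ret null gut and 187 FPKM in wildtype gut), and of 12 gut mesenchyme markers 9 rose (941 and 438 FPKM). Of 13 hepatic markers 11 rose (324 and 24.0 FPKM). Somite and muscle markers were lower in 7 of 10 tested (18.1 and 88.6 FPKM over 14 listed), 9 of 11 tested nephric and gonadal markers fell while 2 rose (104 and 122 FPKM over 12 listed), and of 12 enteric crest markers 11 fell (51.5 and 119 FPKM). The only marker listed at 0 in these lists was Myf6 in wildtype gut. In these bulk gut samples, fewer cells of a type and less RNA per cell cannot be told apart, and with no value per sample no result below could be repeated without the libraries concerned.

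Across the 24 tested genes, Fgf10, Fgfr2, Phlda1 and Fgf13 rose and Dusp6 and Dusp4 fell in Ret null gut, while 18 did not pass. The 6 called genes are 25% of those tested, against 14.6% of all 13430 tested genes. The 4 rises stand beside 5.69% of all tested genes called higher, and the 2 falls beside 8.88% called lower. Whether the share differs from that of all genes was not tested. The median log2 fold change of the 24 genes was -0.02, against 0.01 over all tested genes. None of the called members changed 2-fold: by log2 fold change Phlda1 ranked 294th and Fgf10 313th of the 764 genes called higher, and Dusp6 ranked 666th of the 1192 called lower.

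**Figure D1:**
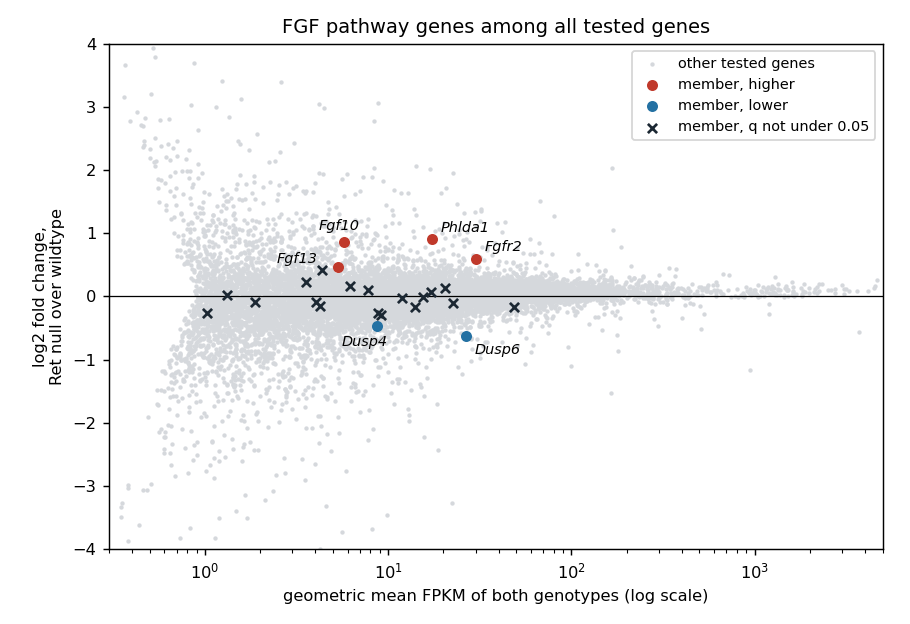
Log2 fold change (Ret null over wildtype) of all tested genes above 0 in both genotypes against their geometric mean FPKM on a log axis, cut at 4 log2 units either way, with members marked. The 6 called members lie between -0.63 and 0.91, within the spread of the other tested genes.

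Promoters of 4 of the 6 called members are shown because they are the stretches in front of the deposited lines whose levels differed. Which starts the measured transcripts used was not tested. RefSeq (GRCm38.p6, the assembly also called mm10) gave the entries used here, for 24 members, and for 18 of them an entry began at the base where the deposited line begins. Among the called members these were Fgf10, Fgfr2, Fgf13 and Dusp6, and the promoter table used here has no entry for Phlda1 and Dusp4. The 250 bases before the start are given 5′ to 3′ on the gene's own strand, for Fgf10 from chr13:118714449-118714698 (plus strand), for Fgfr2 from chr7:130266809-130267058 (minus), for Fgf13 from chrX:59134437-59134686 (minus) and for Dusp6 from chr10:99262981-99263230 (plus). Capitals mark the GC box GGGCGG or its reverse complement.
Fgf10: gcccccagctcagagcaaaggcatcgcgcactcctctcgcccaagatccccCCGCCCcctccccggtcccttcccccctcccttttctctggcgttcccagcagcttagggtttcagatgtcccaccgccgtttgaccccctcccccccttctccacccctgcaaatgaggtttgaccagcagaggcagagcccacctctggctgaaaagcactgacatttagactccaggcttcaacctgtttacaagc
Fgfr2: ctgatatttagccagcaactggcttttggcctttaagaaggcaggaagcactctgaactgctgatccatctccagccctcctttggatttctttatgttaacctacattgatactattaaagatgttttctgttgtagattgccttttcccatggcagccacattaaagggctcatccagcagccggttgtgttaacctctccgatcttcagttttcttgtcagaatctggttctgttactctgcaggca
Fgf13: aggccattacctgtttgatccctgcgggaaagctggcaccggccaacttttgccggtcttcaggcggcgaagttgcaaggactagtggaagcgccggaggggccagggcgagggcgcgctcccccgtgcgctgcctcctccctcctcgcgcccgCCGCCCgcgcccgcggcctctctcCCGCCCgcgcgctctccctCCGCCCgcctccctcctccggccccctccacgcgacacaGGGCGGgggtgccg
Dusp6: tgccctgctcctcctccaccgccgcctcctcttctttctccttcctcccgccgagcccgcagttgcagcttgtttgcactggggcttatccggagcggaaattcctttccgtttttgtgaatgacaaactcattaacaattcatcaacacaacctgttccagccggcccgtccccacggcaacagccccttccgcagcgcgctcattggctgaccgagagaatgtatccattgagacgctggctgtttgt
The stretches differ in base composition, with 74.4% G and C for Fgf13, 61.2% for Fgf10, 56.4% for Dusp6 and 44.0% for Fgfr2. The Fgf13 stretch holds 4 GC boxes, the Fgf10 stretch holds 1, and those of Fgfr2 and Dusp6 hold none. Fgf13 has 4 RefSeq starts. The stretches at those not shown have 45.6%, 74.8% and 40.4% G and C, with 0, 3 and 0 GC boxes. A GC box was found on either strand in 13 of the 18 members' stretches (72.2%), against 32.7% of 32851 RefSeq promoters. The ETS-type letters CCGGAA were found on either strand in 3 of 18 (16.7%; Fgf5, Fgfrl1 and Fgfr4), against 12.03% of all promoters, and in none of the 4 shown. The TATA box letters TATAAA were found in none of the 18, against 12.4% of all promoters. The members' stretches are 1 per gene, at the start of the deposited line, while the RefSeq promoters can hold several per gene. The percentages thus compare unlike sets, and no difference between them was tested. These are matches of letters, which do not show binding.

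Among the secreted ligands, Fgf10 was the only called gene and had the highest level in both genotypes. Fgf10 stood at 7.70 FPKM in Ret null gut and 4.25 FPKM in wildtype gut. It was thus higher in Ret null gut, 1.81-fold, at a log2 fold change of 0.86 ± 0.22 (95% interval 0.42 to 1.30). The authors' deposited table gives it q = 0.000775, the lowest value found there. That q goes with the smallest Cuffdiff p, 5e-05, which 867 tested lines share, so it does not rank genes among them. The line spans the annotated gene on chromosome 13, 118714699 to 118792573. Of the other tested ligands, Fgf9 stood at 3.85 FPKM in Ret null gut and 3.28 FPKM in wildtype gut (0.23 ± 0.27, interval -0.29 to 0.75). Fgf18, a ligand with roles in bone and lung, stood at 1.81 and 1.92 FPKM in Ret null and wildtype gut (interval -1.14 to 0.97). Fgf5, a regulator of the hair cycle, stood at 1.32 FPKM in Ret null gut and 1.31 FPKM in wildtype gut (interval -0.92 to 0.95). None of the 4 tested secreted ligands fell by Cuffdiff's q or by its p before adjustment (under 0.05). Nor did any fall by a p that reads the test statistic as normally distributed (called the normal p below). The other 10 had no test, so they could not be called.

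The other 10 secreted ligands were not tested and stood between 0.0106 and 0.859 FPKM. Fgf1, the acidic FGF, was the highest of them, at 0.589 FPKM in Ret null gut and 0.859 FPKM in wildtype gut. Fgf7, a mesenchymal ligand of the epithelial Fgfr2 form as Fgf10 is, was listed at 0.215 FPKM in Ret null gut and 0.746 FPKM in wildtype gut, on a line that starts far outside the annotated gene. Fgf2 was listed at 0.229 and 0.715 FPKM in Ret null and wildtype gut, and its exons share 640 bases with Nudt6 on the opposite strand. Fgf8, a ligand of early patterning centres and limb buds, was listed at 0.0371 FPKM in Ret null gut and 0.442 FPKM in wildtype gut. Fgf17, a close relative of Fgf8, was listed at 0.284 FPKM in Ret null gut and 0.360 FPKM in wildtype gut. Fgf16 and Fgf20, which belong to the same subfamily as Fgf9, were at or below 0.136 FPKM in both genotypes. Fgf3, Fgf4 and the endocrine-type ligand gene Fgf15 lie side by side on chromosome 7 and all stood at or below 0.124 FPKM in both genotypes. In the same 101 kb, the neighbouring Oraov1 stood at 12.5 FPKM in Ret null gut and 11.4 FPKM in wildtype gut, and the cyclin D1 gene Ccnd1 at 44.7 and 63.2 FPKM. Without a test, the differences of these 10 ligands cannot be weighed against error.

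**Figure D2:**
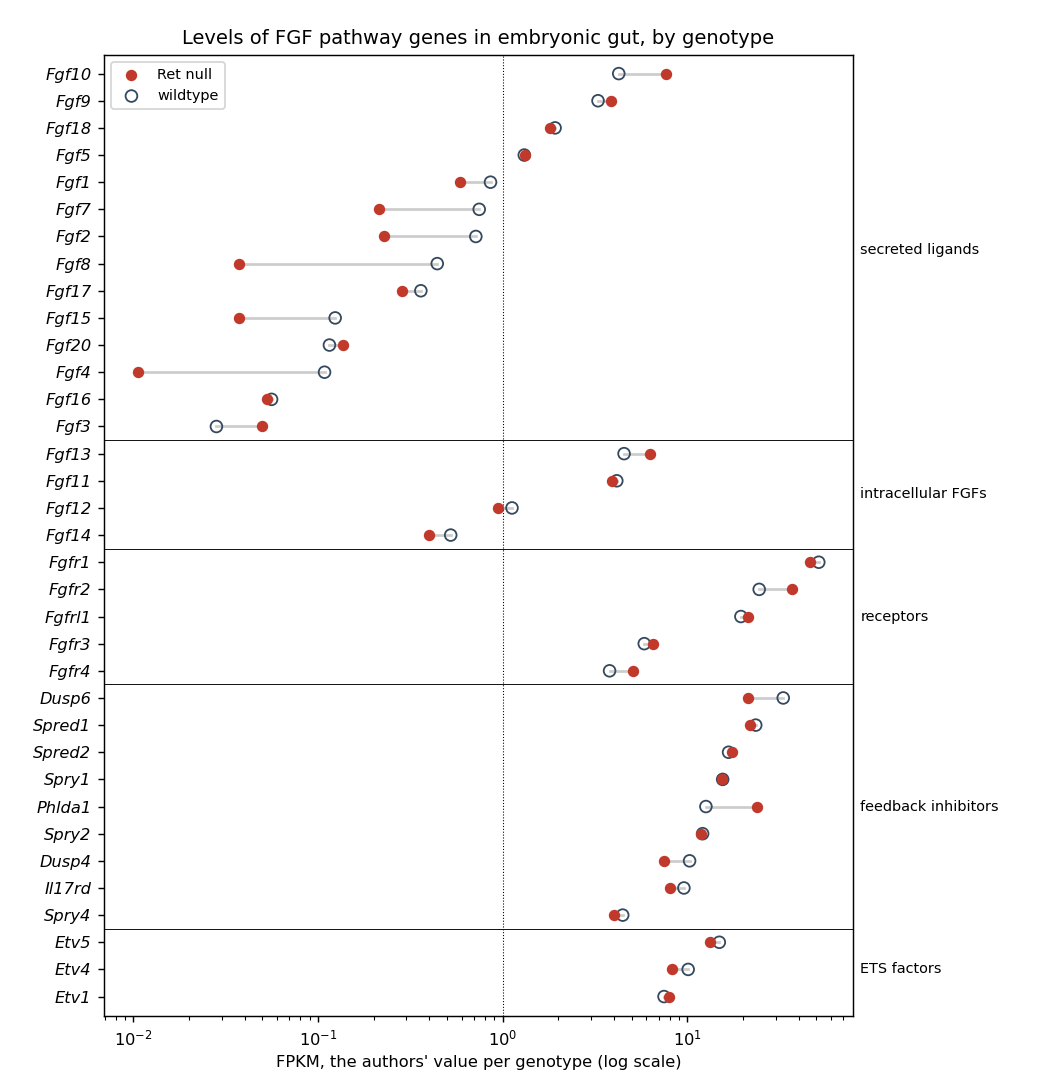
FPKM per genotype on a log axis for all 35 genes by role, with filled points for Ret null and open circles for wildtype; the dotted line marks 1 FPKM. The 11 untested genes lie below 1 FPKM in both genotypes, and Fgfr1 is the highest of all in both.

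Summed over the 14 secreted ligands, FPKM was 16.3 in Ret null gut and 14.3 in wildtype gut. Fgf10 made up 47.2% of this sum in Ret null gut and 29.7% in wildtype gut. Fgf9 made up 23.6% and 22.9%, and the 10 untested ligands the rest beyond Fgf18 and Fgf5, namely 10.1% in Ret null gut and 24.8% in wildtype gut. The ratio of Fgf10 to Fgf9 was 2.003 in Ret null gut and 1.29 in wildtype gut.

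Gut mesenchyme markers were higher beside Fgf10. The contractile gene Acta2 stood at 241 FPKM in Ret null gut and 117 FPKM in wildtype gut, and the transcription factor gene Foxf1 at 124 and 51.3 FPKM. Relative to Foxf1, Fgf10 stood at 0.0619 in Ret null gut and 0.0828 in wildtype gut, and relative to Acta2 at 0.0320 and 0.0364. Over the whole list of 12 mesenchyme markers the direction was mixed: Fgf10 relative to the marker was lower in Ret null gut for 8 markers and higher for 4 (Nkx2-3, Tagln, Bmp4 and Pdgfra). A ratio of this kind is lower wherever the marker's own fold change was above that of Fgf10, so the counts only restate the marker changes. The list was chosen with earlier results of these data known. Relative to Pdgfra, a receptor gene of mesenchymal cells, Fgf10 stood at 0.102 in Ret null gut and 0.0648 in wildtype gut, and relative to the signalling gene Bmp4 at 0.274 and 0.147. These 4 markers were named after their values were seen, and no difference between ratios was tested. The part of the mesenchyme markers in the Fgf10 difference was not tested. The exons of Fgf10 share 69 bases with the antisense gene Gm16263, and nothing in the labels says whether reads were counted by strand.

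The intracellular FGFs, which are not secreted and bind voltage-gated sodium channels, held 1 rise among 3 tested genes. Of all tested genes, 5.69% were called higher. Fgf13 stood at 6.29 FPKM in Ret null gut and 4.54 FPKM in wildtype gut. It rose 1.39-fold (log2 0.47 ± 0.30), with q = 0.0419 in the authors' deposited table, while the 95% interval from the test statistic was -0.11 to 1.05 and the normal p did not pass (its Benjamini-Hochberg q was 0.719). On the minus strand, its line begins at 1 of 4 RefSeq starts and leaves out the part of the gene toward the other 3. Whether reads of transcripts from those starts are in the value was not tested. Fgf13 lies on the X chromosome, beside the Xist difference given above, and of 473 tested X-linked genes 5.29% were called higher and 12.5% lower, with a median log2 fold change of -0.05. The part of the sex difference in the Fgf13 value was not tested. Fgf11 stood at 3.90 FPKM in Ret null gut and 4.15 FPKM in wildtype gut, with an interval of -0.94 to 0.76. Fgf12 stood at 0.939 FPKM in Ret null gut and 1.12 FPKM in wildtype gut (interval -1.25 to 0.74). Fgf14 was not tested, at 0.398 FPKM in Ret null gut and 0.523 FPKM in wildtype gut.

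Among the receptors, Fgfr2 rose and the other 4 did not pass. Fgfr2, the receptor of Fgf10, stood at 37.0 FPKM in Ret null gut and 24.5 FPKM in wildtype gut. It was 1.51-fold higher in Ret null gut, with a log2 fold change of 0.60 ± 0.18 (interval 0.25 to 0.95; authors' deposited table: q = 0.000775). The line spans the annotated gene on chromosome 7, 130162451 to 130266808, and does not separate the epithelial from the mesenchymal splice form. The annotated exons of Fgfr2, not limited to the span of this line, share 314 bases with Ctbp2 on the same strand. Whether the shared bases lie within the line was not tested. Ctbp2 stood at 44.8 FPKM in Ret null gut and 39.0 FPKM in wildtype gut and did not pass.

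Fgfr1, the main receptor of mesenchyme, had the highest level of all 35 genes. It stood at 45.8 FPKM in Ret null gut and 51.4 FPKM in wildtype gut, with a log2 fold change of -0.17 ± 0.18 (interval -0.52 to 0.18). Fgfr3, known for restraining bone growth, stood at 6.52 FPKM in Ret null gut and 5.84 FPKM in wildtype gut (0.16 ± 0.24). Fgfr4, a receptor of liver and of embryonic muscle, stood at 5.05 FPKM in Ret null gut and 3.79 FPKM in wildtype gut (0.41 ± 0.28), with p = 0.0153 and q = 0.09 in the authors' deposited table, and passed only at the looser threshold of q under 0.1. Fgfrl1, whose product lacks the kinase domain, stood at 21.4 FPKM in Ret null gut and 19.5 FPKM in wildtype gut (0.13 ± 0.20). The log2 fold changes of 4 of the 5 receptors were above 0, but only that of Fgfr2 had an interval clear of 0. Over all 13430 tested genes, 6983 were above 0. Receptors that fell numbered 0 by Cuffdiff's q, 0 by its p before adjustment (under 0.05) and 0 by the normal p.

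Of the summed FPKM of Fgfr1 to Fgfr4, 94.4 in Ret null gut and 85.5 in wildtype gut, Fgfr2 made up 39.2% in Ret null gut and 28.6% in wildtype gut. Fgfr1 made up 48.5% in Ret null gut and 60.1% in wildtype gut. The ratio of Fgfr1 to Fgfr2 was 1.24 in Ret null gut and 2.10 in wildtype gut. Fgfr3 made up 6.90% in Ret null gut and 6.83% in wildtype gut, and Fgfr4 made up 5.35% and 4.43%.

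**Figure D3:**
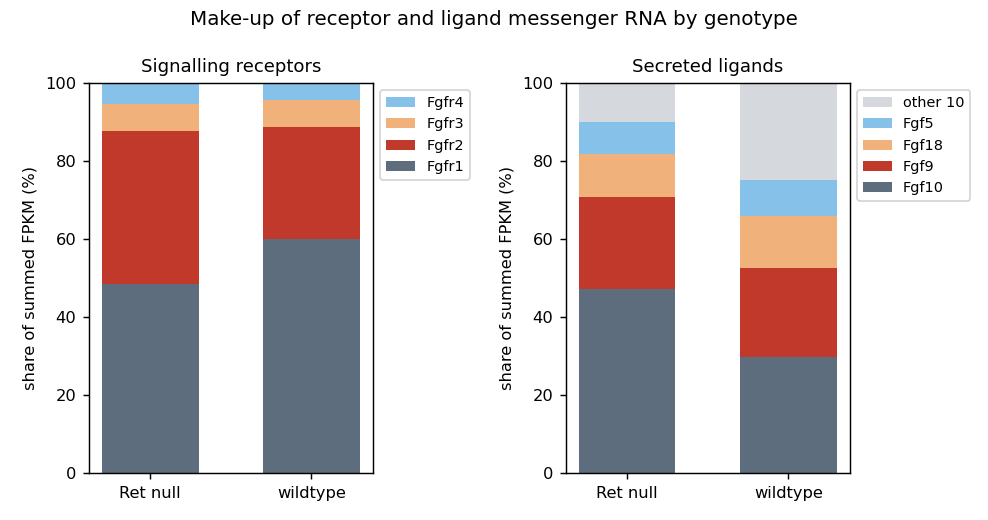
Share of summed FPKM (percent) held by each of the 4 signalling receptors (left) and by the secreted ligands (right) in Ret null and wildtype gut. Fgfr2 holds 39.2% in Ret null gut against 28.6% in wildtype gut, and Fgf10 holds 47.2% against 29.7%.

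Epithelium markers were higher beside Fgfr2. The keratin gene Krt8 stood at 65.6 FPKM in Ret null gut and 29.02 FPKM in wildtype gut, and the tight junction gene Cldn6 at 59.6 and 29.4 FPKM. Relative to Krt8, Fgfr2 stood at 0.564 in Ret null gut and 0.843 in wildtype gut, and relative to Cldn6 at 0.621 and 0.832. Over the whole list of 14 epithelium markers, Fgfr2 relative to the marker was lower in Ret null gut for 12 and higher for 2 (Sox17 and Gata4, named after their values were seen). Such a ratio is lower wherever the marker's own fold change was above that of Fgfr2, so the counts only restate the marker changes. The list was chosen with earlier results of these data known. No difference between ratios was tested. Nor was the part of the epithelium markers in the rise of Fgfr2 tested.

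The feedback inhibitors held changes in both directions, with 2 falls and 1 rise among 9 tested genes. Of all tested genes, 8.88% were called lower and 5.69% higher, and no difference from these shares was tested. Dusp6, the cytoplasmic phosphatase that switches off ERK, stood at 21.3 FPKM in Ret null gut and 33.0 FPKM in wildtype gut. It fell 1.55-fold, with a log2 fold change of -0.63 ± 0.18 (interval -0.98 to -0.29; authors' deposited table: q = 0.000775). In wildtype gut Dusp6 was the second highest of the 35 genes and in Ret null gut the sixth. Its line spans the annotated gene on chromosome 10, 99263231 to 99267489.

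Dusp4, a nuclear phosphatase of the same family, stood at 7.43 FPKM in Ret null gut and 10.3 FPKM in wildtype gut. It fell 1.38-fold, with a log2 fold change of -0.47 ± 0.24 (interval -0.93 to -0.01; authors' deposited table: q = 0.0156). The fall did not pass at q under 0.01, at a minimum change of 1.5-fold or with the normal p (its Benjamini-Hochberg q was 0.434). Both phosphatase genes were lower together with the crest, nephric and somite markers given above, whose part was not tested.

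Phlda1, an ERK-inducible gene for a small protein with a pleckstrin homology-like domain, went the other way. It stood at 23.7 FPKM in Ret null gut and 12.6 FPKM in wildtype gut. It rose 1.88-fold, the largest fold among the called members, with a log2 fold change of 0.91 ± 0.21 (interval 0.51 to 1.31; authors' deposited table: q = 0.000775). The ratio of Phlda1 to Dusp6 was 1.11 in Ret null gut and 0.381 in wildtype gut. Phlda1 lies on chromosome 10, 111506286 to 111508649, and its exons share 727 bases with the noncoding gene Gm28592 on the opposite strand, so reads of the pair may not have been told apart.

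The Sprouty and Spred genes, which restrain the pathway between the receptor and Raf, had log2 fold changes between -0.16 and 0.07. Spry1, which restrains Ret in the mouse kidney, stood at 15.4 FPKM in Ret null gut and 15.5 FPKM in wildtype gut, with a log2 fold change of -0.01 ± 0.20 and an interval of -0.40 to 0.37. Spry2, which restrains GDNF signalling in mouse enteric neurons, stood at 11.8 FPKM in Ret null gut and 12.1 FPKM in wildtype gut (interval -0.46 to 0.40). Spry4 stood at 4.004 FPKM in Ret null gut and 4.46 FPKM in wildtype gut (interval -0.64 to 0.32). Spred1 stood at 21.8 FPKM in Ret null gut and 23.4 FPKM in wildtype gut (interval -0.45 to 0.24), and Spred2 at 17.5 and 16.7 FPKM (interval -0.29 to 0.43). By Cuffdiff's q 0 of these 5 genes passed, as did 0 by its p before adjustment (under 0.05) and 0 by the normal p. The intervals leave room for changes up to a log2 fold change of -0.64. Il17rd, which encodes the FGF pathway inhibitor Sef, stood at 8.01 FPKM in Ret null gut and 9.57 FPKM in wildtype gut (-0.26 ± 0.18), with q = 0.105 in the authors' deposited table.

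None of the 3 ETS factors passed. Etv4 stood at 8.22 FPKM in Ret null gut and 10.1 FPKM in wildtype gut, with a log2 fold change of -0.30 ± 0.24 (interval -0.76 to 0.17) and p = 0.0395 but q = 0.18 in the authors' deposited table. Etv5 stood at 13.2 FPKM in Ret null gut and 14.9 FPKM in wildtype gut (-0.17 ± 0.19, interval -0.54 to 0.20). Etv1, the third of this subfamily, stood at 7.99 FPKM in Ret null gut and 7.47 FPKM in wildtype gut (0.10 ± 0.22). By Cuffdiff's q 0 of 3 passed, by its p before adjustment 1 was lower (Etv4), and by the normal p 0 passed. At p before adjustment under 0.05, 1814 of all 13430 tested genes were lower and 1331 higher. Over the 12 feedback inhibitors and ETS factors, 9 had log2 fold changes below 0 and 3 above, with a median of -0.13 against 0.01 over all tested genes. Of all 13430 tested genes, 6447 were below 0 and 6983 above. Among the 9 only Dusp6 and Dusp4 passed, and the split was not tested.

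**Figure D4:**
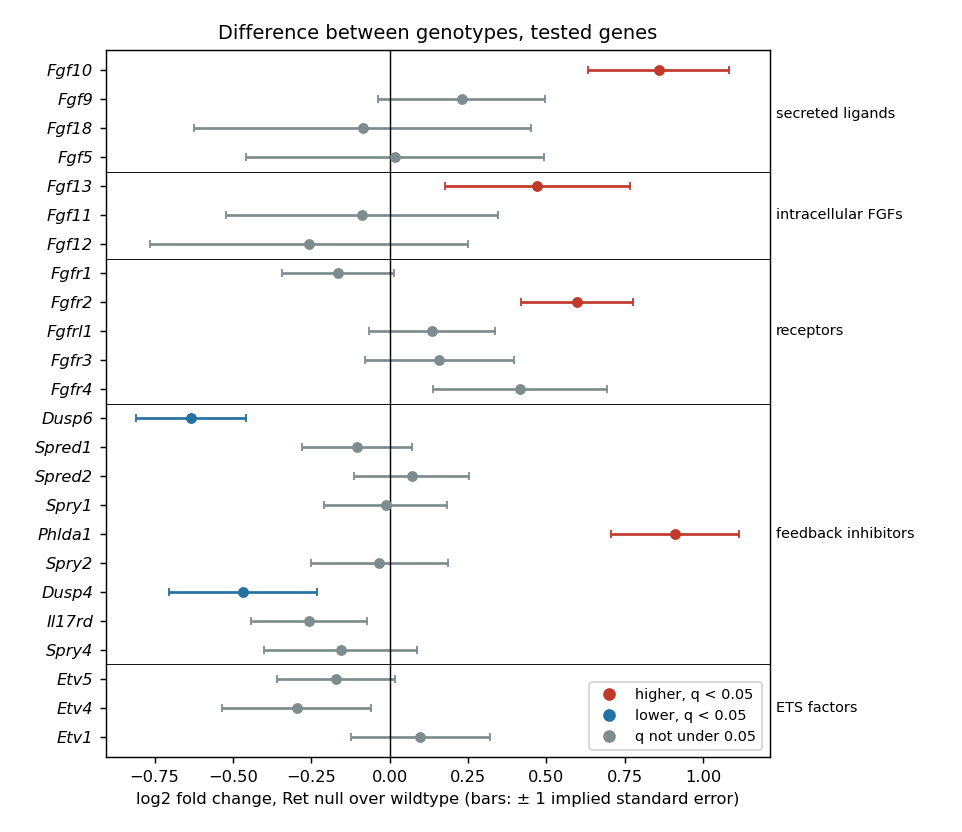
Log2 fold change (Ret null over wildtype) of the 24 tested genes by role, with bars of 1 implied standard error either way. Fgf10, Fgf13, Fgfr2 and Phlda1 are marked higher, Dusp6 and Dusp4 lower, and the other 18 did not pass q under 0.05.

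The rest of the pathway was read from 3 further lists with 66 genes, of which 58 were tested, 2 rose and 6 fell. The 8 calls are 13.8% of those tested, close to the 14.6% of all tested genes. In the list of adaptors, Ras, Raf and ERK kinases, 1 of 22 tested genes fell and 0 rose. Braf, which encodes a Raf kinase, stood at 5.63 FPKM in Ret null gut and 6.98 FPKM in wildtype gut, with a log2 fold change of -0.31 ± 0.18 (authors' deposited table: q = 0.0379). The other log2 fold changes in this list were at most 0.28 in size. By Cuffdiff's p before adjustment (under 0.05), 2 members were higher and 3 lower, beside 1331 higher and 1814 lower of all 13430 tested genes. With the normal p 0 passed.

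Among co-receptors, heparan sulphate enzymes and FGF-binding proteins, 3 of 17 tested genes fell and 0 rose. Of all tested genes, 8.88% were called lower and 5.69% higher. Flrt2 and Flrt3 encode membrane proteins with leucine-rich repeats, of which Flrt3 promotes FGF signalling in Xenopus. Flrt2 stood at 15.0 FPKM in Ret null gut and 21.3 FPKM in wildtype gut (-0.51 ± 0.17, q = 0.000775 in the authors' deposited table). Flrt3 stood at 12.9 FPKM in Ret null gut and 17.3 FPKM in wildtype gut (-0.43 ± 0.21, q = 0.00517 in the authors' deposited table). Coordinates given for Flrt3, 140395430 to 142390050 on chromosome 2, reach far beyond the annotated gene (140658198 to 140671476). Whether reads from outside Flrt3 are in its value was not tested. Hs6st2, an enzyme that adds sulphate groups to heparan sulphate, stood at 8.01 FPKM in Ret null gut and 10.4 FPKM in wildtype gut (-0.38 ± 0.22, q = 0.0208 in the authors' deposited table). By Cuffdiff's p before adjustment, 1 member was higher and 4 lower, beside 1331 higher and 1814 lower of all 13430 tested genes. With the normal p 0 passed.

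Among other genes known to respond to ERK or to encode ETS factors, 2 of 19 tested genes rose and 2 fell. The shares of all tested genes called were 5.69% higher and 8.88% lower. Elk4, an ETS factor that acts with serum response factor, stood at 1.16 FPKM in Ret null gut and 3.46 FPKM in wildtype gut. It fell 2.99-fold (-1.58 ± 0.37, q = 0.000775 in the authors' deposited table). Ccnd1 fell by 0.50 on the log2 scale (± 0.25, q = 0.00206 in the authors' deposited table). Myc, a growth-promoting transcription factor gene, stood at 24.2 FPKM in Ret null gut and 16.8 FPKM in wildtype gut (0.53 ± 0.21, q = 0.000775 in the authors' deposited table). Ets2 stood at 28.7 FPKM in Ret null gut and 22.8 FPKM in wildtype gut (0.33 ± 0.18, q = 0.0197 in the authors' deposited table). Before adjustment, Cuffdiff's p (under 0.05) called 4 members higher and 2 lower, beside 1331 higher and 1814 lower of all 13430 tested genes. With the normal p, 1 of these 19 genes was lower (Elk4) and 0 were higher.

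With the normal p over all tested genes that had a finite statistic, 1.72% were called higher and 2.78% lower. Fgf10 (Benjamini-Hochberg q = 0.00476), Fgfr2 (q = 0.0232) and Phlda1 (q = 0.000529) were still called higher and Dusp6 (q = 0.01) lower, while Fgf13 and Dusp4 were not called.

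**Figure D5:**
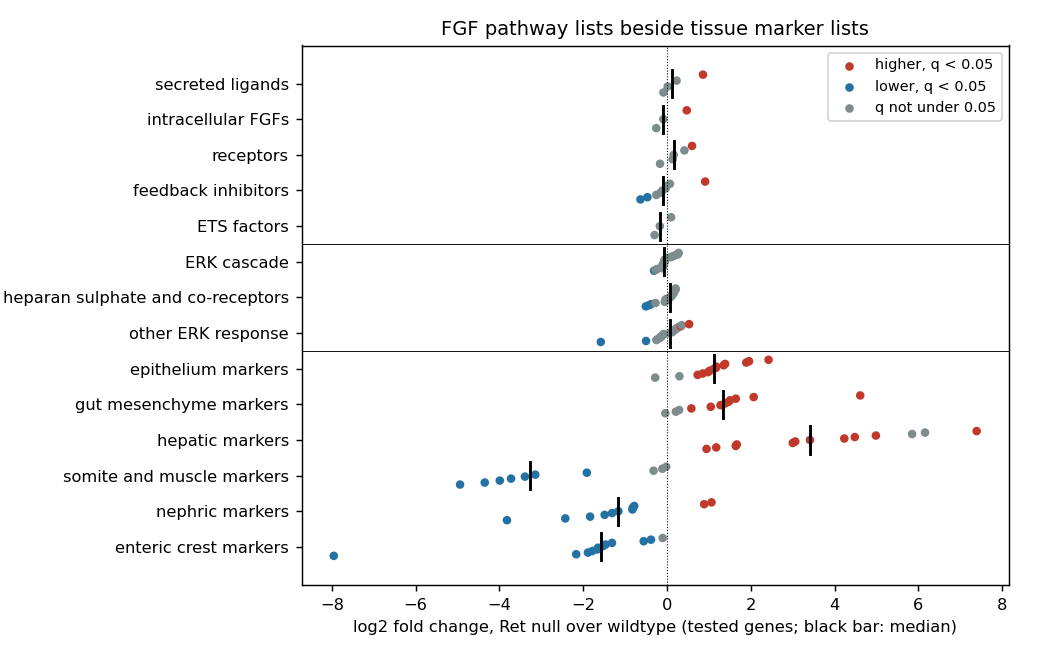
Log2 fold change (Ret null over wildtype) of tested genes in the FGF pathway lists (top and middle) and in tissue marker lists (bottom), with a black bar at each list's median. Medians of the 5 FGF groups lie between -0.17 and 0.16, while those of the marker lists lie between -3.27 and 3.41.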

How the data were processed

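Polyadenylated RNA of 6 gut samples was sequenced from Illumina TruSeq libraries, per the labels' protocols. Picard, TopHat2, Cufflinks and Cuffdiff were used with the mm10 build, per the submitters' processing notes. No source used here gives their versions or settings, or the gene annotation.

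The authors deposited 1 FPKM value per genotype, with their test statistic (a score), p-value and q-value per gene, per the file headers. The genotypes are coded by a letter each, read as wildtype and homozygous null. Of 23234 lines, 1 held 2 records run together and was left out. The log2 fold change was recomputed from the FPKM values, because the deposited log2 column holds spreadsheet error text, and divided by the authors' test statistic to give its standard error. The normal p took that statistic as a standard normal deviate, with Benjamini-Hochberg adjustment over 13422 genes with a finite statistic. Its code was run on simulated statistics that were drawn as normal deviates. Such a run cannot show whether the authors' statistic is normally distributed. No count or depth is in the table, so no counting interval was made and low values are the least certain.

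The members and lists were chosen with earlier results of these data known. All members are named. Of other pathway lists the called genes were named, and of marker lists up to 2 with the highest mean, besides the sex-linked genes, Ret and Myf6. Markers relative to which Fgf10 or Fgfr2 was higher in Ret null gut were also named, after their values were seen. Exon overlaps came from all GENCODE M21 exons of a gene, not only those within the deposited line, and promoters from RefSeq GRCm38.p6. Nothing says that samples came from separate litters, so the authors' p-values may measure technical spread. Python 3.11.15, pandas 2.3.3 and scipy 1.17.1 were used.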

Additional observations from a re-analysis of the deposited data

How the results depend on the processing

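Alternatives were q thresholds of 0.01 and 0.1, minimum levels of 1 and 5 FPKM, a minimum change of 1.5-fold on the plain scale or with 1 FPKM added, and the normal p. The counts of secreted ligands called in each direction, of receptors called lower and of feedback genes and ETS factors called higher did not move under any of these. Receptors called higher were 2 at q under 0.1 (Fgfr4 joined) and 0 at 1.5-fold with 1 FPKM added, where Fgfr2 fell just short. Feedback genes and ETS factors called lower were 1 (Dusp6) at q under 0.01, at 1.5-fold on either scale and with the normal p. Other pathway genes called higher were 1 at q under 0.01, 4 at q under 0.1 and 0 at 1.5-fold on either scale and with the normal p. Those called lower were 4 at q under 0.01, 7 at q under 0.1 (Nf1 joined) and 5 at a minimum of 5 FPKM. Elk4 was the gene that dropped out at 5 FPKM. At 1.5-fold on either scale and with the normal p, 1 was called lower (Elk4). Adding 0.1 or 1 FPKM to both values cannot change the sign of a log2 fold change, so it only showed smaller sizes. With the median of tested genes set to 0, no tested member changed sign. That median was 0.01, so only a value very near 0 could have done so. Leaving out a replicate could not be run, since the table holds no value per sample. No paired analysis was possible because the columns carry no replicate numbers.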
